A study of Rattus norvegicus with 4 samples.

Results

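Mast cell and eosinophil genes were examined in the middle ear mucosa of SD (Sprague-Dawley) rats 1 week after an injection through the eardrum. The 10 genes were chosen by name, and by their human symbols they are CPA3, TPSAB1, TPSB2, CMA1, FCER1A, MS4A2, KIT, HDC, GATA2 and EPX. All 10 were found among the 27832 features of the deposited expression table, each as the feature of that symbol with the highest mean, and rat symbols are used below. The rats received MRSA (methicillin-resistant *Staphylococcus aureus*), PA (*Pseudomonas aeruginosa*), a mixed culture of both species (MRSA + PA), or media only as the control. Each bacterial inoculum was 50 µL with 10000000 colony forming units. The mucosa was scraped from the dissected bulla, and poly(A) RNA was sequenced. Each condition is 1 library, so no difference could be set against replicate error and no test was made. The ages of the rats and the number of rats that gave RNA to a library are not given in the sources used here.

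Mast cells are resident cells of mucosa and connective tissue that store proteases and histamine in granules. They carry the high-affinity IgE receptor and need KIT, the receptor for stem cell factor, to survive, and the factor GATA2 maintains their gene programme and that of basophils. Eosinophils are blood-derived granulocytes of type 2 responses, whose granules hold eosinophil peroxidase and major basic proteins.

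Levels are given as FPKM, sequenced fragments per unit of transcript length and of library size. A log2 difference between 2 libraries was taken with 0.1 FPKM added to each value, which understates the change of low genes, and a gene was called higher or lower when at least 2-fold apart. Calls were set beside those over the 15944 features whose mean across the libraries reached 1 FPKM, a filter that all 10 genes passed. Epx, with a mean of 1.07 FPKM, and Tpsab1, with a mean of 1.18 FPKM, lay just above it. The number of fragments behind a value is unknown, so no interval was put around any value.

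The libraries differed in tissue makeup. The 19 skeletal muscle markers, all tested, summed to 4097 FPKM in MRSA, 29.9 FPKM in PA and 25.9 FPKM in MRSA + PA, against 10611 FPKM in media, and all 19 were called lower in each inoculated library. Pan-leukocyte markers summed to 745, 664 and 671 FPKM in MRSA, PA and MRSA + PA, against 263 FPKM in media, and 4 of 5 were called higher in each. Erythroid markers summed to 2269, 1168 and 2128 FPKM in MRSA, PA and MRSA + PA, against 11607 FPKM in media, with 5 of 6 tested called lower in each. Of all tested features, 8.47%, 10% and 7.78% were called higher after MRSA, PA and MRSA + PA, and 4.95%, 7.80% and 7.83% lower. The part of these shifts in tissue makeup in the results for the 10 genes was not tested.

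Promoters of Cpa3, Cma1, Epx and Prg3 are shown first, since GATA2 is both one of the 10 genes and a factor that binds short GATA motifs in mast cell genes. The windows are from RefSeq, assembly GRCr8, and run from 250 bases before to 50 bases after each gene start, read 5′ to 3′ on the strand of the gene. Capitals mark a GATA motif, searched on both strands as AGATAA or AGATAG or TGATAA or TGATAG, and as the reverse complements TTATCT or CTATCT or TTATCA or CTATCA. Cpa3 is shown as the mast cell carboxypeptidase, Cma1 as the chymase that was highest after MRSA, and Epx and the eosinophil gene Prg3 as genes that were lowest after PA. The Cpa3 window is chr2:104673188-104673487 (-), that of Cma1 chr15:33390084-33390383 (-), that of Epx chr10:73175131-73175430 (-) and that of Prg3 chr3:90478904-90479203 (+).
Cpa3: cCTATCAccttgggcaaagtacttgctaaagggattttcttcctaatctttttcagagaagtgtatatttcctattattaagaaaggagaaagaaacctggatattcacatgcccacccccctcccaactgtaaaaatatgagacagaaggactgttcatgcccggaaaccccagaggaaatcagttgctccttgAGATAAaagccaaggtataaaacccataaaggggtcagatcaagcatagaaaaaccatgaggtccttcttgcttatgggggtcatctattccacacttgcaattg
Cma1: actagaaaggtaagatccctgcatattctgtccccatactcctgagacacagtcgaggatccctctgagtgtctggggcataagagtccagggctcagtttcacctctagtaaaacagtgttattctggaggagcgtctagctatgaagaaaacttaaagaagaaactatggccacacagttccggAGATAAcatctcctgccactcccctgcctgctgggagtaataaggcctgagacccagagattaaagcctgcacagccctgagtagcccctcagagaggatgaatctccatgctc
Epx: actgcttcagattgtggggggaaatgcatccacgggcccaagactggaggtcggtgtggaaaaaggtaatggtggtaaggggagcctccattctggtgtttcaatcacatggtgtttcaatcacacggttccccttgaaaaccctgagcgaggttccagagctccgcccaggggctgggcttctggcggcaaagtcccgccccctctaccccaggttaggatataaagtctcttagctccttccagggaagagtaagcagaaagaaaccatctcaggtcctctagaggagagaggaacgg
Prg3: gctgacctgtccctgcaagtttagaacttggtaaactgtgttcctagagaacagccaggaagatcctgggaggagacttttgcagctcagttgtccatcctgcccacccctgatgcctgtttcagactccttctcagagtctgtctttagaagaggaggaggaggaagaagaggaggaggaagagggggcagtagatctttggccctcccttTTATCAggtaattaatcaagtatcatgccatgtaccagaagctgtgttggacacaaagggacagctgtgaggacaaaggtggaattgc

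Of the 10 genes, 9 had a promoter entry. Matches were found in 3 of the 9. Cpa3 had matches whose first bases lay 249 and 55 bases before the start, Cma1 had 1 at 64 bases and Fcer1a, the IgE-binding receptor chain, had 1 at 93 bases. These 3 are 33.3% of the 9, and 30.3% of all 33469 promoters in the same table held a match, so the share is near that of promoters at large. The Epx window held no match, and the Prg3 window held 1 match, 38 bases before the start. The windows of Kit and Gata2, which are not shown, also held none.

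As a group, the 10 genes lay nearer to the bulk of features than to the leukocyte markers. In MRSA against media, 0 of the 10 genes were called higher and 0 lower, where 8.47% of all tested features were called higher, 4.95% lower and 13.4% in either direction. In PA against media, Kit was called higher and Gata2 and Epx lower, 3 of 10 genes, beside 10% of features called higher, 7.80% lower and 17.8% in either direction. In MRSA + PA against media, 0 genes were called higher and 0 lower, beside 7.78% and 7.83% of features, or 15.6% in either direction. The median log2 difference of the 10 genes from media was 0.30 for MRSA, 0.04 for PA and -0.40 for MRSA + PA, and over all tested features it was 0.05, 0.07 and 0.05. The median of the pan-leukocyte markers was 1.52, 1.48 and 1.49 in the same order. The 3 comparisons share the media library.

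**Figure D1:**
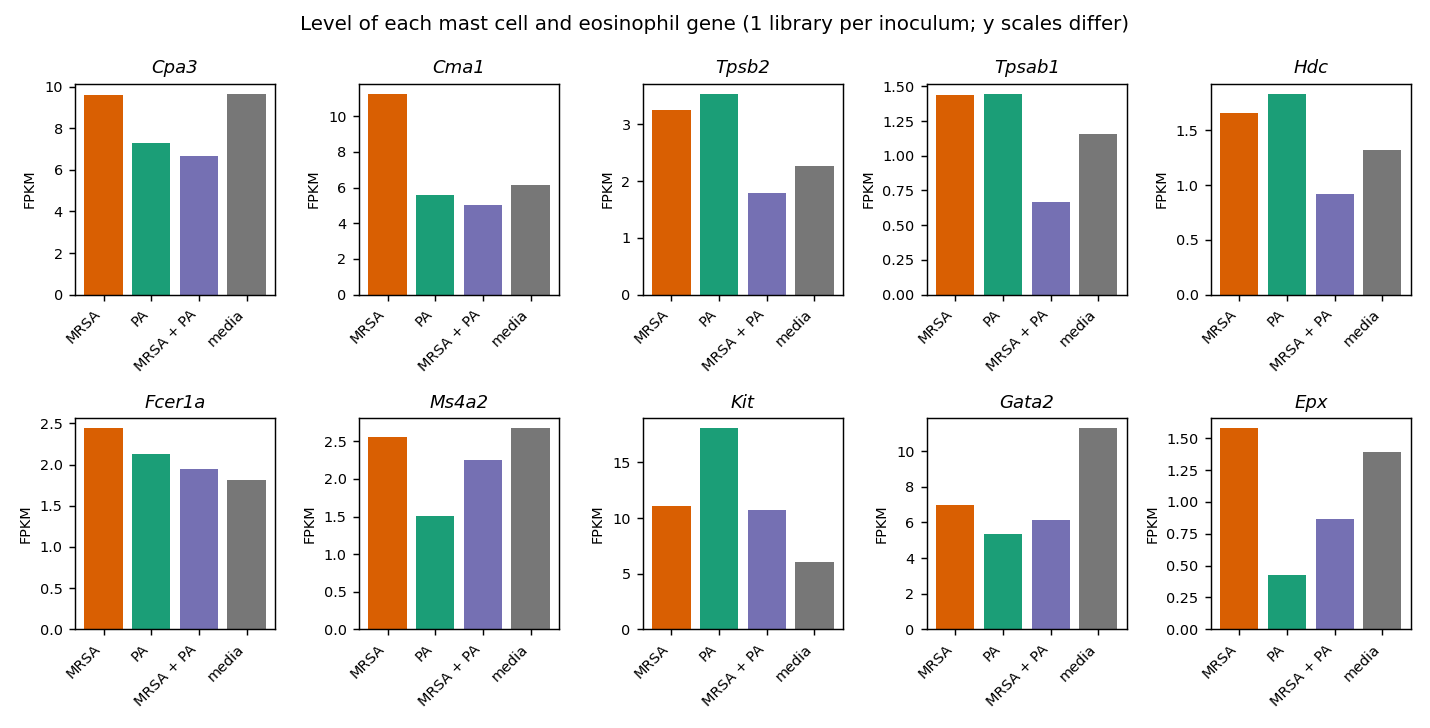
FPKM of each of the 10 genes (vertical axes, each from 0 and on its own scale) in the MRSA, PA, MRSA + PA and media libraries, 1 bar per library and 1 library per condition. Kit stands out in PA at 18.0 FPKM, Cma1 in MRSA at 11.3 FPKM and Gata2 in media at 11.3 FPKM, and Epx is lowest in PA at 0.430 FPKM.

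Among the granule proteases, Cpa3, mast cell carboxypeptidase A3, had 9.61 FPKM in MRSA, 7.29 FPKM in PA and 6.66 FPKM in MRSA + PA, against 9.67 FPKM in media. MRSA and media were thus level, PA and MRSA + PA were lower, and the log2 differences of -0.01, -0.40 and -0.53 did not reach 2-fold. Cma1, a chymase, had 11.3 FPKM in MRSA, 5.56 FPKM in PA and 5.05 FPKM in MRSA + PA, against 6.14 FPKM in media. Only the MRSA library of the 4 was high, at a log2 difference of 0.86 from media, and the other inoculated libraries were within 0.28 log2 of media.

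The tryptases are serine proteases stored as tetramers on heparin. Tpsb2 had 3.25 FPKM in MRSA, 3.54 FPKM in PA and 1.80 FPKM in MRSA + PA, against 2.26 FPKM in media. Tpsab1 had 1.44 FPKM in MRSA, 1.45 FPKM in PA and 0.665 FPKM in MRSA + PA, against 1.15 FPKM in media. Both tryptases were above media after either species alone and below it after both, with no log2 difference from media past 0.71 in size. Tpsb2 and Tpsab1 are related genes that lie near each other on chromosome 10, and how the authors' multi-read correction shared fragments between them is not known.

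Hdc, histidine decarboxylase, makes histamine. It had 1.66 FPKM in MRSA, 1.83 FPKM in PA and 0.917 FPKM in MRSA + PA, against 1.32 FPKM in media. The order of the libraries was that of Tpsb2, with PA highest and MRSA + PA lowest, and the log2 differences from media were 0.31, 0.44 and -0.49.

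The alpha and beta chains of the IgE receptor were low. Fcer1a, the alpha chain that binds IgE, had 2.44 FPKM in MRSA, 2.12 FPKM in PA and 1.94 FPKM in MRSA + PA, against 1.81 FPKM in media. It varied least of the 10 genes, with a highest library 1.33-fold above the lowest, and a second feature of that name was listed at 0 in all 4 libraries. Ms4a2, the beta chain that amplifies the signal, had 2.56 FPKM in MRSA, 1.5 FPKM in PA and 2.25 FPKM in MRSA + PA, against 2.67 FPKM in media. PA was its lowest library, 1.73-fold below media, and MRSA + PA and MRSA were within 0.24 log2 of media.

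Kit and Gata2 lay on opposite sides of media. Kit had 11.1 FPKM in MRSA, 18.0 FPKM in PA and 10.7 FPKM in MRSA + PA, against 6.02 FPKM in media. All 3 inoculated libraries were above media, and PA was called, 2.97-fold higher (log2 difference 1.57), while MRSA and MRSA + PA were at 0.87 and 0.83. Gata2 had 6.98 FPKM in MRSA, 5.36 FPKM in PA and 6.15 FPKM in MRSA + PA, against 11.3 FPKM in media. All 3 were below media, at log2 differences of -0.68, -1.06 and -0.86, and PA alone was called, 2.08-fold lower. This call was lost with equal FPKM sums, at -0.89, and with 1 FPKM added, at -0.95.

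Kit and Gata2 are also used outside mast cells, Kit in melanocytes and blood progenitors and Gata2 in endothelium and progenitors, so markers of these cells were read beside them. Of 11 melanocyte markers, 10 were in the table and 3 were tested. Tyr, tyrosinase, was at or below 0.0189 FPKM in every library, Tyrp1 at or below 0.108 FPKM and Dct at or below 0.538 FPKM. MLANA, a melanosome protein, had 1.83 FPKM in MRSA, 0.497 FPKM in PA and 3.44 FPKM in MRSA + PA, against 1.53 FPKM in media, and was lowest in PA. The other tested markers, Mitf, which mast cells also use, and Oca2, were not called, at 7.69 and 1.45 FPKM in PA, against 5.91 and 1.36 FPKM in media, and the median log2 difference of the 3 in PA was 0.08. None of the 11 endothelial markers was called in any inoculated library against media. Of all tested features, 13.4%, 17.8% and 15.6% were called in either direction after MRSA, PA and MRSA + PA. The median log2 difference of the endothelial markers was -0.45 for MRSA, -0.11 for PA and -0.10 for MRSA + PA. In PA the endothelial markers ranged from -0.98 for Cldn5, close to a call, to 0.66 for Cdh5. Of 8 progenitor markers, 7 were in the table and 2 were tested. Prom1 had 67.7, 56.6 and 44.6 FPKM in MRSA, PA and MRSA + PA, against 59.8 FPKM in media. Flt3, also a dendritic cell receptor, had 11.6, 7.76 and 11.2 FPKM, against 5.14 FPKM in media, and was called higher in MRSA and MRSA + PA. Gfi1b, below the filter, was highest in PA, as Kit was, at 0.260, 1.05 and 0.587 FPKM in MRSA, PA and MRSA + PA, against 0.349 FPKM in media, and Cd34 and Hoxa9 were listed at 0 in all 4 libraries. The part of such cells in the Kit difference was not tested. Tal1, a factor that mast cells share with red cell precursors, had 1.61, 1.42 and 1.72 FPKM in MRSA, PA and MRSA + PA, against 2.76 FPKM in media. Erythroid cells also express Gata2 while immature, and the erythroid sum given above was lower in all 3 inoculated libraries; its part in the Gata2 difference was not tested.

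Epx, eosinophil peroxidase, had 1.58 FPKM in MRSA, 0.430 FPKM in PA and 0.867 FPKM in MRSA + PA, against 1.39 FPKM in media. MRSA was level with media, and PA was 2.82-fold lower than media (log2 difference -1.50) and was called. MRSA + PA lay between, at a log2 difference of -0.63. With 1 FPKM added, the Epx difference in PA was -0.74 and was not called. The Epx feature shares 8 bases with Mks1 on the other strand, and none of the other 9 genes overlaps another feature of the table.

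**Figure D2:**
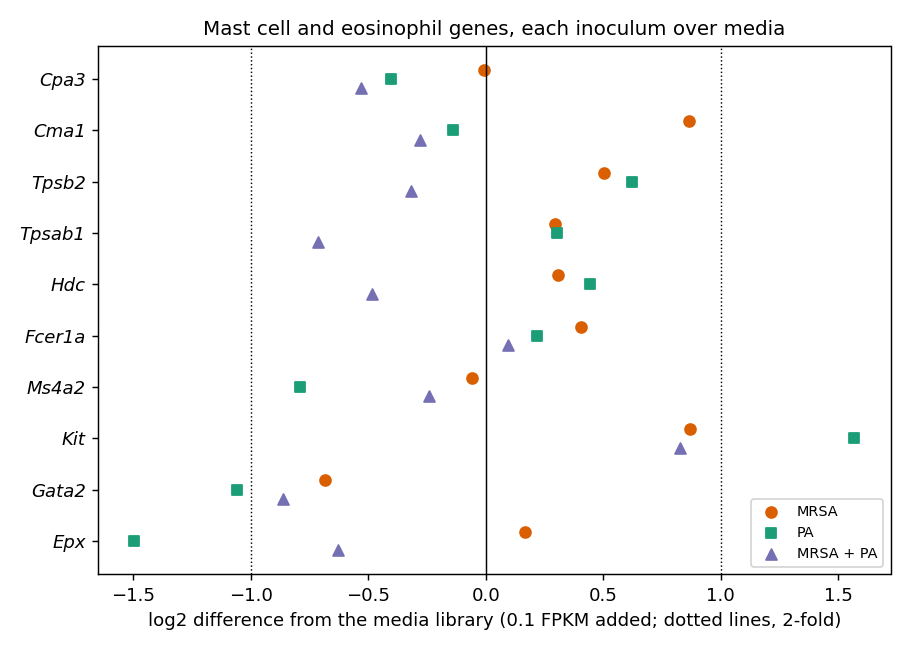
Log2 difference of each gene from the media library after 0.1 FPKM was added (horizontal axis), for MRSA, PA and MRSA + PA, 1 library each, with dotted lines at 2-fold. Kit at 1.57, Gata2 at -1.06 and Epx at -1.50, all in PA, are the points past the lines.

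The mixed inoculum was next compared with each species alone. In MRSA + PA against MRSA, all 10 genes were on the lower side, with a median log2 difference of -0.66 beside -0.01 over all tested features. Cma1 and Tpsab1 were called, at -1.14 and -1.01, so 2 genes were lower and 0 higher, where 5.73% of features were called lower, 1.61% higher and 7.34% in either direction. The smallest difference was that of Kit, at -0.04. In MRSA + PA against PA, 7 genes were below 0 and 3 above, Epx, Ms4a2 and Gata2, at 0.87, 0.55 and 0.19. Tpsab1 was called lower at -1.02, and Tpsb2 at -0.94 and Hdc at -0.93 came close, so 1 gene was lower and 0 higher, beside 4.27% and 2.50% of features, or 6.77% in either direction. Both Tpsab1 calls were lost with 1 FPKM added, and with equal FPKM sums Tpsb2 and Hdc were called in addition. The genes sit in the same tissue and their values are not independent of one another.

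MRSA alone was also compared with PA alone. Epx was called 3.16-fold higher in MRSA, and Cma1 2.01-fold higher, at log2 differences of 1.66 and 1.01. These 2 genes were higher and 0 lower, where 5.03% of features were called higher, 3.54% lower and 8.57% in either direction. Kit had the most negative log2 difference, at -0.70, and the median of the 10 genes was 0.28. With 1 FPKM added, neither Epx, at 0.85, nor Cma1, at 0.90, was called, and with equal FPKM sums Cma1 was at 0.89.

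Across the 4 libraries, the highest level was 1.97-fold above the lowest at the median of the 10 genes, and 1.45-fold at the median of all tested features. This ratio reached 2-fold in 5 of the 10 genes, 50%, and in 25.4% of tested features. MRSA + PA was the highest library for 0 genes and the lowest for 5, Cpa3, Cma1, Tpsb2, Tpsab1 and Hdc. PA was the highest for 4 genes and the lowest for 3, Gata2, Ms4a2 and Epx. MRSA was the highest for 3 and the lowest for 0, and media was the highest for 3 and the lowest for 2, Kit and Fcer1a. The matching shares over all tested features were not computed, so these counts have no background beside them and are a description only.

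The levels were then set against Ptprc, which encodes CD45, the surface phosphatase of nucleated blood cells. Ptprc had 61.3 FPKM in MRSA, 64.3 FPKM in PA and 56.9 FPKM in MRSA + PA, against 18.7 FPKM in media. As a percent of Ptprc in the same library, the median of the 10 genes was 4.74% for MRSA, 4.40% for PA and 3.68% for MRSA + PA, against 13.2% for media. All 10 genes were lower by this measure in each of the 3 inoculated libraries. Of the 15943 tested features other than Ptprc, 95.7%, 95.1% and 95.6% were also lower after MRSA, PA and MRSA + PA, or 93.5% in all 3. The count for the 10 genes is thus near the background and is not particular to these genes. Kit came closest to media, at 28.1% in PA, against 32.1% in media. Epx was furthest, at 0.669% in PA, against 7.45% in media. In RNA of a whole tissue, fewer cells of a type and less RNA of the gene in each cell cannot be told apart, and this ratio falls as other leukocytes increase.

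**Figure D3:**
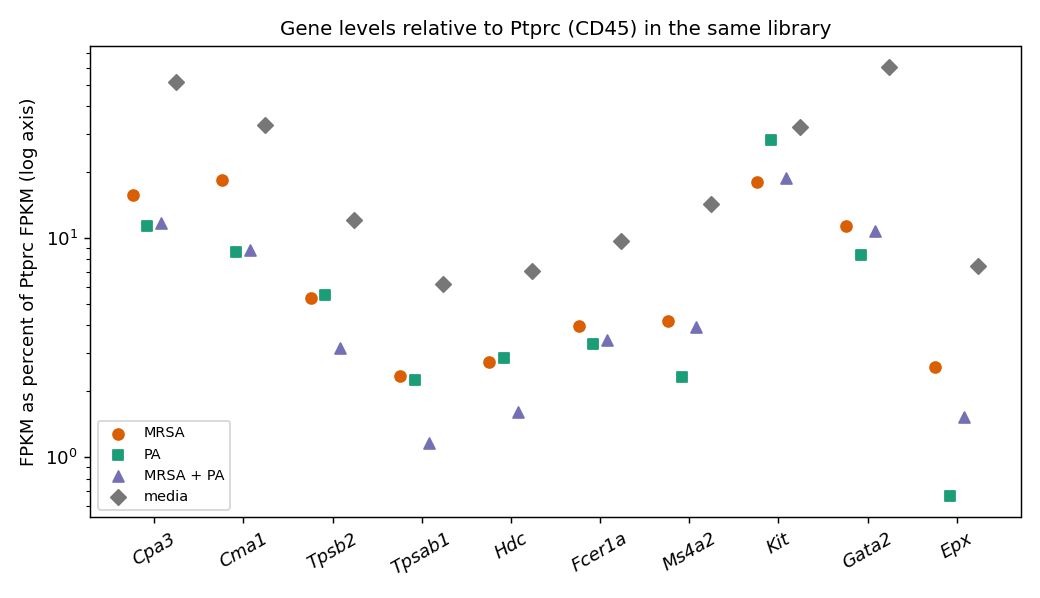
FPKM of each gene as a percent of the FPKM of Ptprc in the same library (vertical log axis), for the MRSA, PA, MRSA + PA and media libraries, 1 point per library. The media point is the highest for all 10 genes, as it is for 93.5% of the tested features other than Ptprc. The gap is narrowest for Kit in PA, 28.1% against 32.1% in media.

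Of 33 other mast cell protease and granule genes, 22 were in the table and 17 were tested. After MRSA 2 were called higher and 1 lower, after PA 3 and 2, and after MRSA + PA 2 and 1. The shares of all tested features called stand beside this list and the lists below. They were 8.47% higher and 4.95% lower after MRSA, 10% and 7.80% after PA, and 7.78% and 7.83% after MRSA + PA. Cd33, an inhibitory sialic acid receptor that other myeloid cells also carry, rose in all 3, to 35.0, 36.5 and 27.7 FPKM in MRSA, PA and MRSA + PA, against 10.1 FPKM in media. The leading feature of Mrgprx2, in humans the mast cell receptor for basic peptides and drugs, also rose in all 3. It had 6.66 FPKM in MRSA, 1.99 FPKM in PA and 2.19 FPKM in MRSA + PA, against 0.614 FPKM in media. Of the 3 features with that name, the next did not share this direction, at 0.502, 0.351 and 0.283 FPKM, against 0.391 FPKM in media. Mrgprb2, below the filter and picked after its values were seen, was lowest in MRSA. It had 0.166, 1.37 and 0.960 FPKM in MRSA, PA and MRSA + PA, against 0.929 FPKM in media. Rgs13, a regulator of G protein signalling found in mast cells and germinal centre B cells, fell to 0.672 FPKM in MRSA and 0.753 FPKM in PA and had 2.25 FPKM in MRSA + PA, against 2.66 FPKM in media. Srgn, the granule proteoglycan core that leukocytes at large use, had 63.7, 121 and 74.9 FPKM in MRSA, PA and MRSA + PA, against 46.8 FPKM in media, and was called higher in PA.

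The rat mast cell protease cluster on chromosome 15 was read beside Cma1, and these genes were picked after their values were seen. Mcpt2, the mucosal mast cell protease, had 17.7 FPKM in MRSA, 14.1 FPKM in PA and 5.63 FPKM in MRSA + PA, against 15.6 FPKM in media. A second Mcpt2 feature had 4.76, 4.73 and 1.31 FPKM, against 4.04 FPKM in media, so MRSA + PA was the low library for both. Mcpt10 went another way. Its leading feature, on chromosome X, had 10.2, 5.18 and 6.07 FPKM in MRSA, PA and MRSA + PA, against 11.3 FPKM in media, and was called lower in PA, 2.16-fold. Its feature in the cluster had 3.61, 1.98 and 1.96 FPKM, against 5.85 FPKM in media, so all 3 inoculated libraries were below media. Mcpt1, the connective tissue protease, had 27.0, 21.9 and 15.5 FPKM in MRSA, PA and MRSA + PA, against 16.2 FPKM in media. Mcpt8, which marks basophils in mice, was low throughout, with 1.12, 0.260 and 0.274 FPKM in MRSA, PA and MRSA + PA, against 1.23 FPKM in media. The Mcpt1 feature spans 290497 bases and overlaps 6 other Mcpt features, 3 of them on the same strand, so the values of these features are uncertain.

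The signalling genes below the IgE receptor, which other leukocytes share, were all tested, 23 of 23. After MRSA 6 were called higher and 0 lower, after PA 7 and 0, and after MRSA + PA 6 and 0, with medians of 0.75, 0.71 and 0.75 on the log2 scale. Fcer1g, the gamma chain common to several Fc receptors, had 563 FPKM in MRSA, 409 FPKM in PA and 390 FPKM in MRSA + PA, against 182 FPKM in media. Syk, the kinase it recruits, had 23.8, 21.9 and 18.3 FPKM, against 8.0 FPKM in media, and the adaptor Lat had 26.0, 25.9 and 33.8 FPKM, against 9.88 FPKM in media. These 3 genes rose in all 3 libraries, where Fcer1a and Ms4a2, the chains carried mainly by mast cells and basophils in rodents, were not called.

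Of 25 growth factors, receptors and type 2 cytokines for these cells, 23 were in the table and 14 were tested, with 4, 3 and 4 called higher in MRSA, PA and MRSA + PA and 0 lower in each. Il3, Il5, Il9 and Il13 were listed at 0 in all 4 libraries, and Il4 was at or below 0.189 FPKM. Kitlg, stem cell factor, named here as the ligand of Kit, had 15.2, 21.3 and 20.5 FPKM in MRSA, PA and MRSA + PA, against 18.8 FPKM in media, and was not called. Il33, an epithelial alarmin that acts on mast cells, had 134, 214 and 210 FPKM, against 172 FPKM in media. Csf2rb, the shared beta chain for interleukin 3, interleukin 5 and GM-CSF, had 24.4, 35.3 and 23.1 FPKM in MRSA, PA and MRSA + PA, against 9.78 FPKM in media. Il9r had 0.984, 2.47 and 1.65 FPKM, against 0.399 FPKM in media. Csf2rb and Il9r rose in all 3 libraries and, like Kit, were highest in PA. The others called higher did not share this peak. Il2rg rose in all 3 and was highest in MRSA, at 63.5, 55.8 and 61.5 FPKM in MRSA, PA and MRSA + PA, against 16.1 FPKM in media. Crlf2, picked after its values were seen, was called higher in MRSA and MRSA + PA. It had 10.31, 8.42 and 10.34 FPKM, against 4.90 FPKM in media.

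The eosinophil genes did not share a direction. Of 24 on the list, 14 were in the table and 11 were tested, with 5 called higher and 1 lower after MRSA, 6 and 3 after PA, and 4 and 1 after MRSA + PA. Prg2, major basic protein, had 13.0 FPKM in MRSA, 1.77 FPKM in PA and 7.38 FPKM in MRSA + PA, against 11.4 FPKM in media. Prg3, its homologue, had 3.95 FPKM in MRSA, 0.394 FPKM in PA and 2.32 FPKM in MRSA + PA, against 2.85 FPKM in media. Like Epx, both were lowest in PA, where Prg2 fell 6.14-fold and Prg3 5.96-fold relative to media, and both were not called in the other libraries. Alox15, a lipoxygenase of eosinophils and macrophages, fell in all 3, to 2.48, 1.66 and 2.58 FPKM in MRSA, PA and MRSA + PA, against 11.3 FPKM in media.

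Most of the eosinophil genes that rose are also used by other myeloid cells. Emr1, which encodes the F4/80 antigen of rodent macrophages, had 112, 74.3 and 77.0 FPKM in MRSA, PA and MRSA + PA, against 19.7 FPKM in media. Siglec5, a sialic acid receptor, had 4.65, 9.46 and 4.41 FPKM, against 2.3 FPKM in media, and was called in PA. The leading Rnase3 feature, an eosinophil-type ribonuclease, had 16.6, 18.4 and 11.6 FPKM, against 4.75 FPKM in media. Of the 5 Rnase3 features the next had 1.65, 0.716 and 1.22 FPKM, against 2.53 FPKM in media, so the features of that name did not share a direction. Ccr3, the eotaxin receptor, picked after its values were seen, had 2.3, 2.88 and 1.33 FPKM in MRSA, PA and MRSA + PA, against 0.836 FPKM in media, and was called higher in MRSA and PA. Il5ra, the interleukin 5 receptor that defines the eosinophil lineage, was at 0.0466 FPKM in MRSA and listed at 0 in PA, MRSA + PA and media.

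Granule genes of this kind are transcribed mostly in marrow precursors, so precursor markers of other granulocytes were read beside Epx. Of 14, 9 were in the table and 8 were tested. Mpo, myeloperoxidase, had 2.61, 1.52 and 2.75 FPKM in MRSA, PA and MRSA + PA, against 3.55 FPKM in media, and was called lower in PA. Elane, neutrophil elastase, had 2.07, 1.06 and 1.30 FPKM, against 1.03 FPKM in media. Cebpe, of the same list, went the other way from Mpo. It had 1.70, 2.59 and 2.00 FPKM in MRSA, PA and MRSA + PA, against 0.792 FPKM in media. Cebpe was called higher in each inoculated library and was 3.02-fold above media in PA. The sum over the list was 552, 562 and 550 FPKM in MRSA, PA and MRSA + PA, against 402 FPKM in media, but S100a8 and S100a9, which mature neutrophils also use, carried most of it. Without them the other 6 tested genes summed to 49.4, 32.0 and 33.6 FPKM, against 41.9 FPKM in media. Camp carried most of this sum in turn, at 35.1, 23.0 and 21.7 FPKM, against 31.8 FPKM in media. Of these 6, 4 were below media in PA, Mpo, Camp, Ctsg and Prtn3, against 1 in MRSA and 2 in MRSA + PA, and the median log2 difference of all 8 in PA was -0.08. The erythroid sum was also lowest in PA, at 1168 FPKM. The part of marrow or blood content in the low Epx of the PA library was not tested.

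Attractants of eosinophils were tested for 8 of 12 genes, with 2 called higher and 2 lower after MRSA, 1 and 2 after PA, and 4 and 3 after MRSA + PA. Ccl11, eotaxin, had 5.46 FPKM in MRSA, 0.127 FPKM in PA and 0.0909 FPKM in MRSA + PA, against 26.2 FPKM in media. It fell in all 3, at log2 differences of -2.24, -6.86 and -7.11. Its order over the libraries ran from MRSA + PA as the lowest through PA and MRSA to media. The skeletal muscle sum had that order, and so did the fibroblast and tendon sheath sum, at 5391, 6245, 6693 and 11487 FPKM. The part of muscle, its sheath or other tissue in the Ccl11 difference was not tested. Ccl24, eotaxin-2, picked after its values were seen, had 10.8, 11.8 and 9.62 FPKM in MRSA, PA and MRSA + PA, against 21.4 FPKM in media, and was called lower in MRSA + PA. Ccl5 had 71.9, 12.0 and 92.5 FPKM, against 17.2 FPKM in media, so it rose in MRSA and MRSA + PA and not in PA. Ccl3 had 23.6, 16.3 and 16.2 FPKM, against 3.15 FPKM in media, and rose in all 3.

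**Figure D4:**
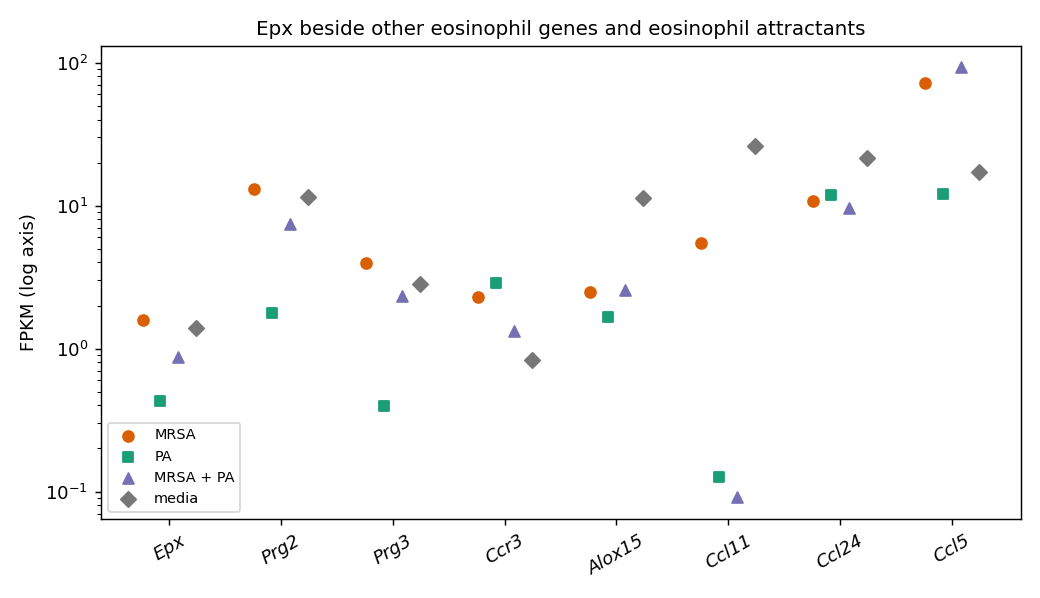
FPKM (vertical log axis) of Epx, of 4 other eosinophil genes and of 3 chemokines that attract eosinophils, in the MRSA, PA, MRSA + PA and media libraries, 1 point per library. PA is the lowest library for Epx, Prg2 and Prg3, at 0.430, 1.77 and 0.394 FPKM, and for Alox15 and Ccl5, at 1.66 and 12.0 FPKM. Ccr3 is highest in PA, at 2.88 FPKM, and Ccl11 is low in both PA and MRSA + PA, at 0.127 and 0.0909 FPKM. Not all listed eosinophil genes are plotted. Of the 11 tested, 6 were called higher and 3 lower in PA against media, beside 10% and 7.80% of all tested features.

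Genes of like pattern were taken by the distance between log2 levels over the 4 libraries, each gene centred on its own mean, among 14366 named features. The 5 nearest to Cpa3 were Ndufaf2, Ddo, Acadl, Ttc30b and Spryd7, at distances of 0.0118 to 0.0764, and 3697 features lay within 0.5. The flat pattern of Cpa3 was thus a common one. The 5 nearest to Epx were BTF3L4, SMKR1, SFTA2, CJ011_MOUSE and Pol, at 0.169 to 0.321, and 25 features lay within 0.5. Prg2 and Prg3 were at 0.98 and 1.15 from Epx and ranked 983 and 2472, since their fall in PA was larger. With 4 libraries such a distance is a description only.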

How the data were processed

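RNA of middle ear mucosa was sequenced by the authors, with 1 library for each of 4 conditions, taken from the inoculum labels; another label names MRSA as the treatment of every sample. The deposited FPKM values were made by the authors with STAR 2.3.0e and Cufflinks 2.1.1, named in the submitters' processing notes, with multi-read and fragment bias correction. The methods name a human reference, whereas the chromosomes of the features are numbered as in the rat, and the build of the table is not given in the sources used here, so promoter coordinates are those of RefSeq GRCr8 alone. The deposited comparison tables hold the authors' log2 ratios, p-values and q-values and were not used. FPKM keeps no depth: low values gave whole ratios (within 1%) for 12.5% to 64.6% of low features, so fragments were not recovered.

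Log2 differences were computed for all 6 pairs of libraries with 0.1 FPKM added, over features whose mean reached 1 FPKM, and 2-fold differences were counted. The 10 genes and the 20 other lists were chosen with earlier results of these data known. In each list the 4 genes with the highest mean and the 3 furthest from media in any inoculated library could be named; genes outside this rule are marked in the text, or were named as markers near 0, as related features, or as regulators. The alternatives were 1 or 0.01 FPKM added, median-of-ratios scaling, equal FPKM sums over features of at least 300 bp, no filter, a mean of at least 5 FPKM, FPKM summed over features of a symbol, and 1.5-fold or 3-fold rules. The arithmetic was tested on simulated data. Python 3.11.15, numpy 2.4.6, pandas 2.3.3 and matplotlib 3.10.9 were used.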

Additional observations from a re-analysis of the deposited data

Results flagged for a closer look

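Lyz2, a lysozyme of macrophages, lay on opposite sides of media in different inoculated libraries. It had 106 FPKM in MRSA, 0.731 FPKM in PA and 0.850 FPKM in MRSA + PA, against 9.62 FPKM in media. The log2 difference from media was 3.45 in MRSA and -3.55 in PA, which are 7.0 apart, and -3.36 in MRSA + PA, which is 6.80 from MRSA. MLANA, a melanosome protein, was at 1.12 in MRSA + PA and -1.45 in PA, which are 2.57 apart. Each side is 1 library and the differences were not tested. The other tested macrophage markers, C1qa, C1qb, Csf1r, Mrc1 and Msr1, were above media in each inoculated library, unlike Lyz2. C1qa had 237, 204 and 234 FPKM in MRSA, PA and MRSA + PA, against 111 FPKM in media. Of these markers Msr1 alone was called higher in PA, at 26.8 FPKM against 6.34 FPKM in media. A second Lyz2 feature had 0.281 FPKM in MRSA and was listed at 0 in PA, MRSA + PA and media.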

How the results depend on the processing

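The number of the 10 genes at least 2-fold apart was 0 for MRSA, 3 for PA and 0 for MRSA + PA against media, 2 in MRSA + PA against MRSA, 1 in MRSA + PA against PA and 2 in MRSA against PA. With 1 FPKM added, the counts were 1 for PA against media, 1 for MRSA + PA against MRSA, 0 for MRSA + PA against PA and 0 for MRSA against PA. Of all tested features, 13.4%, 4.69%, 4.35% and 6.19% were called in these comparisons under that setting. With equal FPKM sums, the counts were 3 for MRSA + PA against PA and 1 for MRSA against PA, beside 7.31% and 8.57% of features. At a mean of at least 5 FPKM, which 4 genes reach, they were 1 for MRSA + PA against MRSA, 0 for MRSA + PA against PA and 1 for MRSA against PA. The shares of features called there were 4.67%, 4.07% and 5.64%. By a 1.5-fold rule, the counts were 3, 5 and 4 for MRSA, PA and MRSA + PA against media, 5 and 5 for MRSA + PA against MRSA and against PA, and 4 for MRSA against PA. That rule called 25.5%, 33.6% and 29.1% of features against media, and 14.9%, 15.9% and 18% in the other comparisons, in the same order. By a 3-fold rule, 0 were left for PA against media, 0 and 0 for MRSA + PA against MRSA and against PA, and 1 for MRSA against PA. Features called at 3-fold were 9.4%, 3.63%, 3.34% and 4.74% in these comparisons. Both rules change the counts by their own construction, as does the stricter filter.

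With 1 FPKM added, Gata2 was at -0.95 and Epx at -0.74 in PA against media, and Tpsab1 at -0.55 and -0.56 in MRSA + PA against MRSA and PA. With equal FPKM sums, Gata2 was at -0.89 in PA against media. The calls added in MRSA + PA against PA were Tpsb2 at -1.07 and Hdc at -1.05. In MRSA against PA, Cma1 was at 0.90 and Epx at 0.85 with 1 FPKM added, and Cma1 at 0.89 with equal sums. Kit in PA against media stayed past 2-fold under every scaling, pseudocount and filter tried. The histamine handling list, with medians of 1.65, 1.67 and 1.95 in MRSA, PA and MRSA + PA against media over 2 genes, had -0.15, -0.24 and -0.083 with no filter, which admits genes near 0. Of 876 list medians under the alternatives, 853 moved by less than 1.5-fold. No paired analysis was possible because each condition is 1 library. Depth behind each value is unknown, which weighs most on Epx, Tpsab1 and Hdc.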

Other observations

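Histamine breakdown was read beside Hdc. Aoc1, diamine oxidase, which degrades histamine outside cells, had 1.05, 1.67 and 2.11 FPKM in MRSA, PA and MRSA + PA, against 0.0321 FPKM in media. Hnmt, the methyltransferase that degrades it inside cells, was at 0.0307 FPKM in MRSA and listed at 0 in PA, MRSA + PA and media. The receptor Hrh1 had 0.715, 0.838 and 1.30 FPKM, against 0.779 FPKM in media, and Hrh2 had 0.737, 0.517 and 1.05 FPKM, against 0.853 FPKM in media. Slc18a2, the transporter that loads histamine into granules, had 2.3, 1.5 and 1.78 FPKM in MRSA, PA and MRSA + PA, against 2.00 FPKM in media.

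Of 15 genes for mast cell lipid mediators, 14 were in the table and 11 were tested, with 0 called in MRSA, 2 higher and 1 lower in PA, and 0 higher and 1 lower in MRSA + PA. Ltc4s, leukotriene C4 synthase, had 1.95, 1.11 and 0.625 FPKM in MRSA, PA and MRSA + PA, against 2.54 FPKM in media, and was called lower in PA and MRSA + PA. Cysltr1, a receptor for these leukotrienes, had 3.69, 6.08 and 3.26 FPKM, against 2.43 FPKM in media, and was called higher in PA. Ptgs2, the inducible cyclooxygenase, had 3.68, 5.15 and 4.41 FPKM, against 2.41 FPKM in media, and was also called in PA. Of 13 basophil genes, 5 were tested, and Gata2 in PA was the 1 call among them against media.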
